A study of Homo sapiens with 12 samples.

Results

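The comparison described here asked in which genes JQ1 acted differently in MDA-MB-231 and HCC70 cells. JQ1 is a small molecule that fills the acetyl-lysine pockets of the BET proteins, among them BRD2 and BRD3, which hold transcription machinery at acetylated chromatin. The 4 groups were MDA-MB-231 with vehicle, MDA-MB-231 with JQ1, HCC70 with vehicle and HCC70 with JQ1, each of 3 arrays, with JQ1 given at 500 nM, vehicle being 0.1% DMSO, and RNA taken after 72 hours. Expression was read as log2 signal on Human Gene 2.0 ST arrays from 150 ng of RNA per sample. Both are established human lines of triple-negative breast cancer, and each is a single line, so a difference between them is not a difference between tumour subtypes. No label states whether arrays of one group are separate cultures; the p-values therefore cover the spread between these arrays, which may be technical.

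For each gene the JQ1 effect was the mean log2 signal under JQ1 minus that in vehicle, and the difference was the effect in HCC70 minus the effect in MDA-MB-231. A positive difference therefore means a gene stood higher under JQ1, relative to vehicle, in HCC70 than in MDA-MB-231, whichever line moved. The genes described are those whose vehicle mean was at least 7 on the log2 scale in both lines, which held for 4585 of the 14884 genes tested (30.8%). Of the remainder, 8514 genes were under that level in both lines, 877 only in MDA-MB-231 and 908 only in HCC70. Nearest to the level, C3orf38 and SVBP were just inside (HCC70 vehicle mean 7.0 each) and RAPGEF2 and ATAT1 just outside (7.0 each after rounding). The level uses the vehicle arrays, which also enter every effect.

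The 2 lines start from different states. MDA-MB-231 is a mesenchymal-like line and HCC70 a basal epithelial one, and their vehicle arrays bore the usual markers, VIM (vimentin, an intermediate filament) at a mean of 10.42 in MDA-MB-231 against 7.13 in HCC70 and EPCAM (an epithelial adhesion molecule) at 7.41 against 10.31. Arrays of 1 group correlated at 0.989 to 0.995 across genes, and array medians ran from 6.16 to 6.26. Arrays numbered 3 of MDA-MB-231 vehicle, of MDA-MB-231 under JQ1 and of HCC70 under JQ1 stood apart with the lowest array weights of limma (0.47, 0.58 and 0.57), and results that turn on them are given without them too. None of the 5 blood cell and 7 stromal, endothelial and fat cell markers tested reached the level in both lines. The summed signal of the blood markers, as log2, ran from 7.84 to 8.03 in MDA-MB-231 vehicle, 7.88 to 7.99 in MDA-MB-231 JQ1, 9.05 to 9.19 in HCC70 vehicle and 8.81 to 8.93 in HCC70 JQ1, and that of the stromal markers lay between 7.58 and 7.84 in every group. One marker of each list, CD14 (-0.65) and RGS5 (-0.62), passed for the difference below, and the part of other cells in the results was not tested.

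As background, dividing cells switch on a set of mitotic genes late in the cell cycle. Their promoters often carry a CHR element (cell cycle genes homology region, TTTGAA) that is bound by the MuvB complex, which works as a repressor in resting cells and, joined by B-MYB and FOXM1, as an activator in G2 and mitosis. Genes of DNA synthesis are instead switched on at the G1/S boundary, mainly by E2F factors. BET proteins are known for sustaining the transcription of growth genes such as MYC, and LIN9, a MuvB subunit, and the Aurora kinases are among the genes studied in connection with BET inhibition in this cancer.

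JQ1 acted differently in the lines on 1141 of the 4585 genes above the level and in 569 of these it lowered the gene only, or further, in MDA-MB-231. By limma with Benjamini-Hochberg adjustment over all genes tested, 827 genes passed with a positive difference and 314 with a negative one. That is 24.9% (18.0% positive, 6.85% negative), against 15.0% of all genes tested (9.02% positive, 5.95% negative) and 10.6% of genes under the level. The difference was at least 1 in size for 190 positive and 51 negative genes, and at least 2 for 10 and 2. The smallest difference that passed was 0.32 and the median standard error (SE) was 0.13. The smallest difference is no limit of detection, since genes with larger differences and a larger SE missed the threshold.

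The called genes fell into a few patterns according to each line's own test. A fall in MDA-MB-231 alone made up 402 of the 1141 (35.2%), with a median effect of -0.64 there and -0.01 in HCC70. A fall in both lines that was larger in MDA-MB-231 made up 167 more (14.6%), with median effects of -1.55 and -0.56, so these patterns together held 569 of the 827 positive genes (68.8%). In HCC70 alone 138 genes rose and 97 fell, and in MDA-MB-231 alone 105 rose. Another 102 genes were called in both lines with opposite signs, of which 64 rose in HCC70 and fell in MDA-MB-231. The rest were larger falls in HCC70 (37), larger rises in HCC70 (27) or in MDA-MB-231 (26), and 40 genes called in neither line on its own.

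Over all 4585 genes the median effect was -0.11 in MDA-MB-231 (SD across genes 0.55) and -0.01 in HCC70 (SD 0.42), and the median difference was 0.12, against 0.00 over all genes tested. In MDA-MB-231 716 of these genes rose and 1539 fell (15.6% and 33.6%, in all 49.2%), against 10.8% and 17.0% of all genes tested (27.8%). In HCC70 809 rose and 983 fell (17.6% and 21.4%, in all 39.1%), against 9.18% and 12.5% (21.7%). Across these genes the effects of the lines correlated at r = 0.591 (Spearman 0.592), a description over genes measured on the same arrays. The split of calls depended on the scale of the arrays. With quantile normalization the positive and negative calls were 716 and 519, 58.0% positive in place of 72.5%, and the median difference was 0.03, whereas centring on array medians gave 822 and 298.

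**Figure D1:**
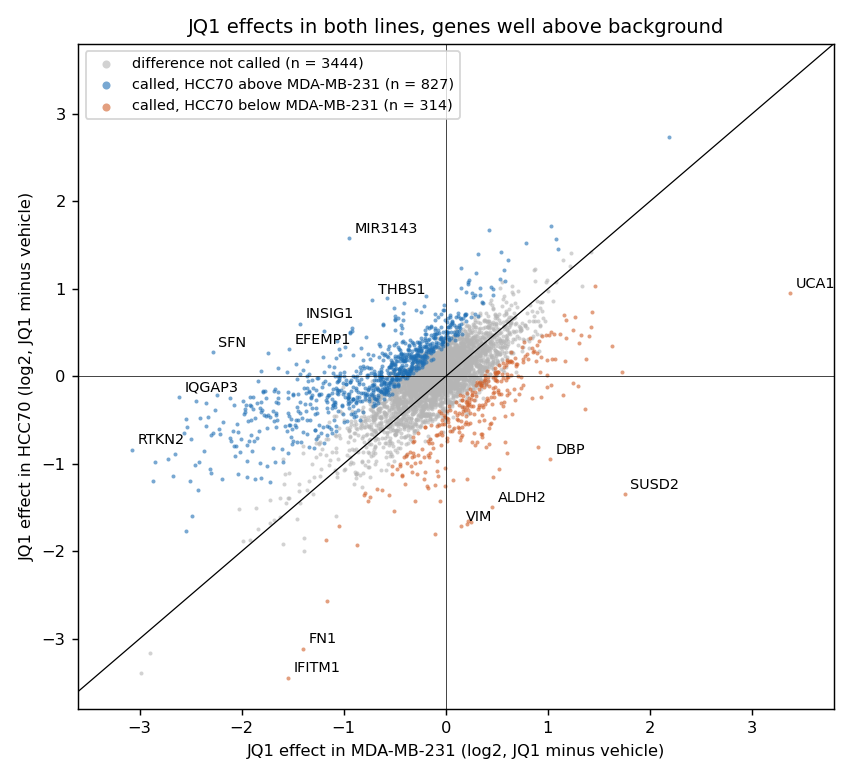
JQ1 effect in MDA-MB-231 (horizontal) against HCC70 (vertical), both as log2 differences between the means of 3 JQ1 and 3 vehicle arrays, for 4585 genes. The diagonal marks equal effects; the 827 positive calls lie above it and spread to the left, where genes fell in MDA-MB-231, and the 314 negative calls lie below it.

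Mitotic genes had the largest median difference of the lists examined. The promoters of CDCA8 and CDC20 are shown because these were the mitotic genes with the largest differences whose promoter held a CHR letter match. The lines below give the 150 bases before the RefSeq start of each gene (GRCh38.p14, plus strand, chr1:37692366-37692515 and chr1:43358831-43358980), with TTTGAA in capitals, beginning 23 and 65 bases before the start.
CDCA8: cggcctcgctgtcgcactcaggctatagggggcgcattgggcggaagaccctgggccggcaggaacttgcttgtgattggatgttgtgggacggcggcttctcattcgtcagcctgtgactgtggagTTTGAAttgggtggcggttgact
CDC20: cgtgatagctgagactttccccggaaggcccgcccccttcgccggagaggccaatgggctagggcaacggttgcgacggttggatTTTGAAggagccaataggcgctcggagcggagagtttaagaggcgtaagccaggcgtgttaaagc

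Of 48 mitotic genes tested, 46 were above the level, and 45 of them were called positive and 0 negative (97.8%, against 18.0% and 6.85% of all genes above the level). Their median difference was 1.43, with a range from 0.20 to 2.16. In MDA-MB-231 all 46 fell, by a median of 1.91, and in HCC70 31 fell and 0 rose, with a median effect of -0.45. The 1 gene not called was SMC2, a condensin subunit named after its value was seen, which fell by 1.43 in MDA-MB-231 and 1.23 in HCC70 (difference 0.20 ± 0.11 SE, limma adjusted p = 0.29). In bulk RNA, fewer dividing cells and less of these RNAs per dividing cell cannot be told apart.

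CDC20, the activator of the anaphase-promoting complex, read 10.21, 10.06 and 9.98 in MDA-MB-231 vehicle and 7.77, 7.77 and 7.65 under JQ1. In HCC70 it read 10.61, 10.68 and 10.76 in vehicle and 10.33, 10.38 and 10.41 under JQ1. The vehicle and JQ1 arrays did not overlap in either line, but the fall was 5.09-fold in MDA-MB-231 and 1.24-fold in HCC70, a difference of 2.04 ± 0.12 (limma adjusted p = 7.9e-07). CDCA8, the borealin subunit of the chromosomal passenger complex, fell by 2.44 ± 0.13 in MDA-MB-231, from 9.39, 9.41 and 9.29 to 7.11, 7.07 and 6.58. In HCC70 its vehicle arrays at 9.29, 9.37 and 9.30 and JQ1 arrays at 9.15, 8.999 and 8.96 differed by -0.29, which did not pass (limma adjusted p = 0.14). The difference for CDCA8 was 2.16 ± 0.18, so a gene at equal vehicle levels in the lines (9.36 and 9.32) ended 2.12 apart.

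AURKB, the kinase of the same complex, read 9.96, 9.90 and 9.69 in MDA-MB-231 vehicle and 7.81, 7.88 and 7.92 under JQ1, and in HCC70 9.51, 9.59 and 9.51 against 9.08, 9.14 and 9.08. It fell in both lines, 3.95-fold and 1.35-fold, and the difference was 1.55 ± 0.12 (limma adjusted p = 4.6e-06). AURKA, the kinase of spindle poles, differed by 1.29 ± 0.13, cyclin A2 (CCNA2) by 1.45 ± 0.12 and the topoisomerase TOP2A by 1.63 ± 0.11, and all 3 fell in both lines. In HCC70 cyclin A2 went from a vehicle mean of 10.25 to 9.23.

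Further genes linked to cell division stood among the 12 most positive genes. SPAG5, a mitotic spindle protein, differed by 2.06 ± 0.14, ARHGAP11A, a regulator of cytokinesis, by 1.96 ± 0.15, KIF23, a spindle midzone kinesin of the list above, by 1.93 ± 0.14 and NEIL3, a DNA glycosylase made mainly in dividing cells, by 2.03 ± 0.14. IQGAP3, a scaffold protein linked to proliferation, read 8.92, 8.95 and 8.82 in MDA-MB-231 vehicle and 6.33, 6.33 and 6.20 under JQ1. Its HCC70 arrays read 8.89, 8.92 and 9.0 in vehicle and 8.82, 8.67 and 8.603 under JQ1. The groups of each line did not overlap, yet only the MDA-MB-231 fall, 6.11-fold, passed on its own (HCC70 limma adjusted p = 0.064), with a difference of 2.37 ± 0.12.

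**Figure D2:**
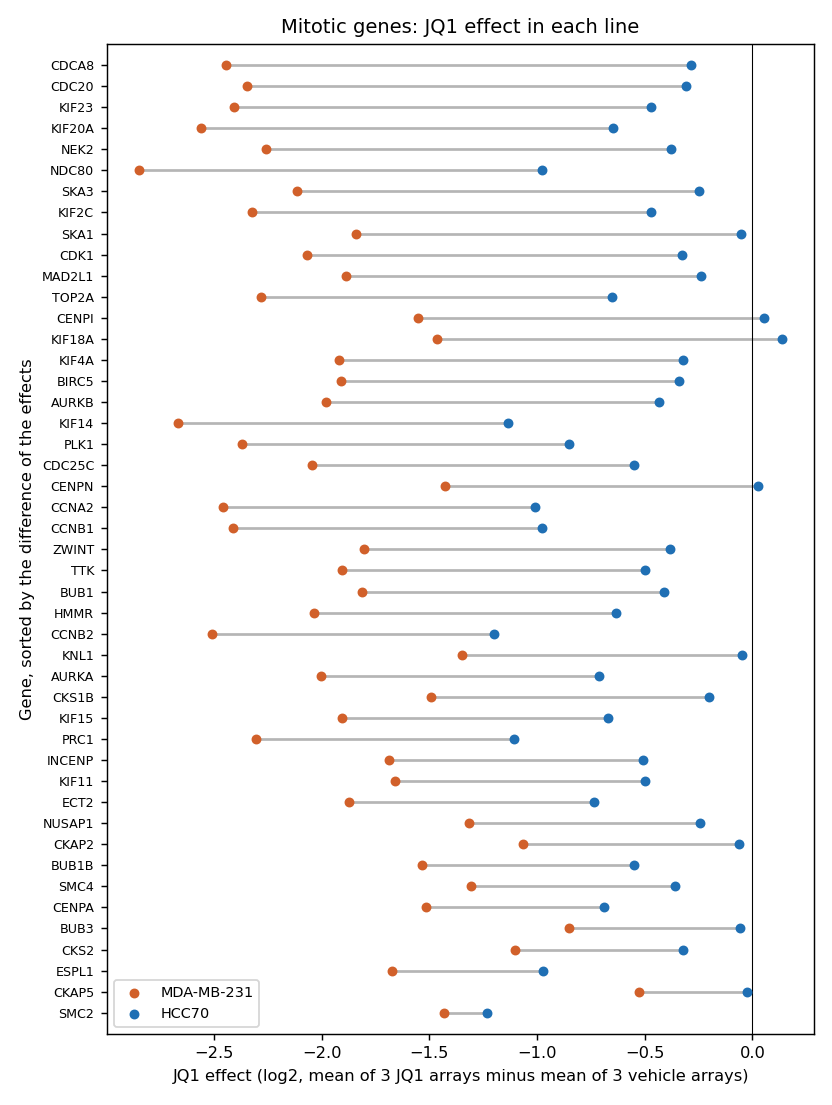
JQ1 effect (log2, JQ1 mean minus vehicle mean, 3 arrays each) of the 46 mitotic genes above the level in MDA-MB-231 (orange) and HCC70 (blue), sorted by the difference from SMC2 at the bottom (0.20) to CDCA8 at the top (2.16). Every MDA-MB-231 point lies to the left of its HCC70 point.

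Promoter letters were counted in RefSeq windows from 250 bases before to 50 after the start, on both strands, counting a gene once if a window held the motif. The CHR letters stood in 32 of the 41 matched mitotic genes (78.0%), 40.1% of the positive genes with a difference of at least 1 (63 of 157), 21.9% of the negative genes of at least that size (7 of 32), 22.3% of all positive genes, 11.3% of all negative ones, 14.5% of all genes above the level and 18.2% of all 27305 genes with a window. The CCAAT letters, bound by NF-Y and often found near a CHR, stood in 75.6% of mitotic genes, 72.7% of DNA replication genes and 44.0% of genes above the level. Among the 22 matched DNA replication genes the CHR letters stood in 1 (4.55%). Motifs were counted separately, their matches can overlap, and a match shows only that the letters are there. An E-box (CACGTG) stood in 14.6% of positive and 10.9% of negative genes and an AP-1 site (TGANTCA) in 7.02% and 6.48%, against 13.3% and 6.07% of genes above the level.

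Most genes of DNA synthesis fell in MDA-MB-231, and most did not pass in HCC70. Of 25 DNA replication and nucleotide synthesis genes above the level, 21 were called positive and 0 negative, with a median difference of 1.14. The positive share was 84.0%, against 18.0% of all genes above the level. In MDA-MB-231 23 fell, and in HCC70 8 fell and 2 rose. RRM2, the small subunit of ribonucleotide reductase, read 9.14, 9.03 and 8.89 in MDA-MB-231 vehicle and 7.79, 7.54 and 7.65 under JQ1. In HCC70 it read 9.72, 9.69 and 9.71 in vehicle and 9.95, 9.87 and 9.84 under JQ1, an effect of 0.18 that did not pass (limma adjusted p = 0.21). The RRM2 difference was 1.54 ± 0.13, and DTL, a ubiquitin ligase subunit of replication control, differed by 1.52 ± 0.12 with no call in HCC70 (effect -0.15).

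In recombination and Fanconi repair 11 of 16 genes were called positive (68.8%, against 18.0% of all genes above the level) and 0 negative. Their median difference was 0.71. EXO1, a DNA end-resecting nuclease, fell by 1.77 in MDA-MB-231 and its HCC70 effect was -0.17, which did not pass, giving a difference of 1.60 ± 0.16. BRIP1, the BRCA1-partner helicase, fell by 1.76 in MDA-MB-231 and by 0.46 in HCC70 (difference 1.30 ± 0.13).

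Many transcription regulators of these genes differed in the same direction, LIN9 not among them. Of 16 MuvB, B-MYB, FOXM1 and E2F regulators above the level 9 were called positive and 0 negative (median difference 0.75), with 2 negative under quantile normalization. The positive share was 56.2%, against 18.0% of all genes above the level. MYBL2, which encodes B-MYB, read 8.33, 8.30 and 7.96 in MDA-MB-231 vehicle and 6.24, 6.33 and 6.16 under JQ1, against 10.91, 10.89 and 10.98 and then 10.57, 10.63 and 10.60 in HCC70. Its difference was 1.62 ± 0.14, and E2F3 differed by 1.55 ± 0.13. FOXM1 fell in both lines, by 2.19 and 1.18, with a difference of 1.02 ± 0.14. Under the level 0 genes of the list were positive and 1 negative. This was E2F2 (MDA-MB-231 vehicle mean 6.655), which fell by 0.60 in MDA-MB-231 and 2.06 in HCC70 (difference -1.46 ± 0.16). LIN9 fell by 1.31 in MDA-MB-231 and 1.01 in HCC70, and its difference of 0.31 did not pass (95% interval -0.02 to 0.64, limma adjusted p = 0.22), which does not show that the lines act alike on it.

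Of 7 G1 cyclins, kinases and inhibitors 4 were positive and 1 negative (57.1% and 14.3%, against 18.0% and 6.85% of all genes above the level). Cyclin E2 (CCNE2), which opens S phase, fell by 1.31 in MDA-MB-231, with an HCC70 effect of -0.04 (difference 1.27 ± 0.15), and its kinase CDK2 differed by 0.87 ± 0.13. Cyclin D1 (CCND1) was the negative one. It read 9.98, 9.98 and 9.94 in MDA-MB-231 vehicle and 10.14, 10.05 and 10.09 under JQ1, while in HCC70 it fell from 8.38, 8.32 and 8.40 to 7.54, 7.82 and 7.82 (difference -0.77 ± 0.12, limma adjusted p = 0.0011).

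SFN showed the largest positive difference of all genes above the level. It encodes stratifin, an epithelial adaptor protein of the cell cycle checkpoint. In MDA-MB-231 its arrays read 10.001, 9.98 and 9.81 in vehicle and 7.79, 7.73 and 7.43 under JQ1. In HCC70 they read 11.39, 11.48 and 11.55 in vehicle and 11.69, 11.73 and 11.84 under JQ1. The fall in MDA-MB-231 was 4.87-fold, and the HCC70 JQ1 arrays lay above vehicle without overlap but missed the threshold (effect 0.28 ± 0.11, limma adjusted p = 0.085). The difference was 2.56 ± 0.15 (adjusted p = 7.3e-07), so the gap between the lines grew from 1.55 to 4.11.

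EPCAM also fell in MDA-MB-231 alone. It went from 7.29, 7.53 and 7.41 to 5.76, 5.87 and 5.39 in MDA-MB-231, and in HCC70 read 10.22, 10.46 and 10.25 in vehicle and 10.62, 10.63 and 10.47 under JQ1, where the effect of 0.26 did not pass. The EPCAM difference was 2.00 ± 0.18. The tight-junction gene CLDN7 differed by 1.05 ± 0.27 (limma adjusted p = 0.02), with MDA-MB-231 JQ1 arrays at 6.06, 6.07 and 6.98; with quantile normalization its call ended (0.93, adjusted p = 0.052). The desmosomal plaque gene PKP2 rose in MDA-MB-231 alone (difference -0.46 ± 0.12). Of 10 epithelial adhesion genes above the level 2 were positive and 1 negative, shares close to the 18.0% and 6.85% of all genes above it.

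RTKN2 fell from 7.31, 7.61 and 7.33 to 4.81, 4.19 and 4.02 in MDA-MB-231, and from 9.27, 9.22 and 9.16 to 8.64, 8.34 and 8.16 in HCC70. Its MDA-MB-231 mean under JQ1, 4.34, lies below the lower quartile of all genes there (4.81), so its difference of 2.24 ± 0.26 is read as at least that. The other called gene that ended that low was the interferon-induced IFIT3 in HCC70 (4.46).

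**Figure D3:**
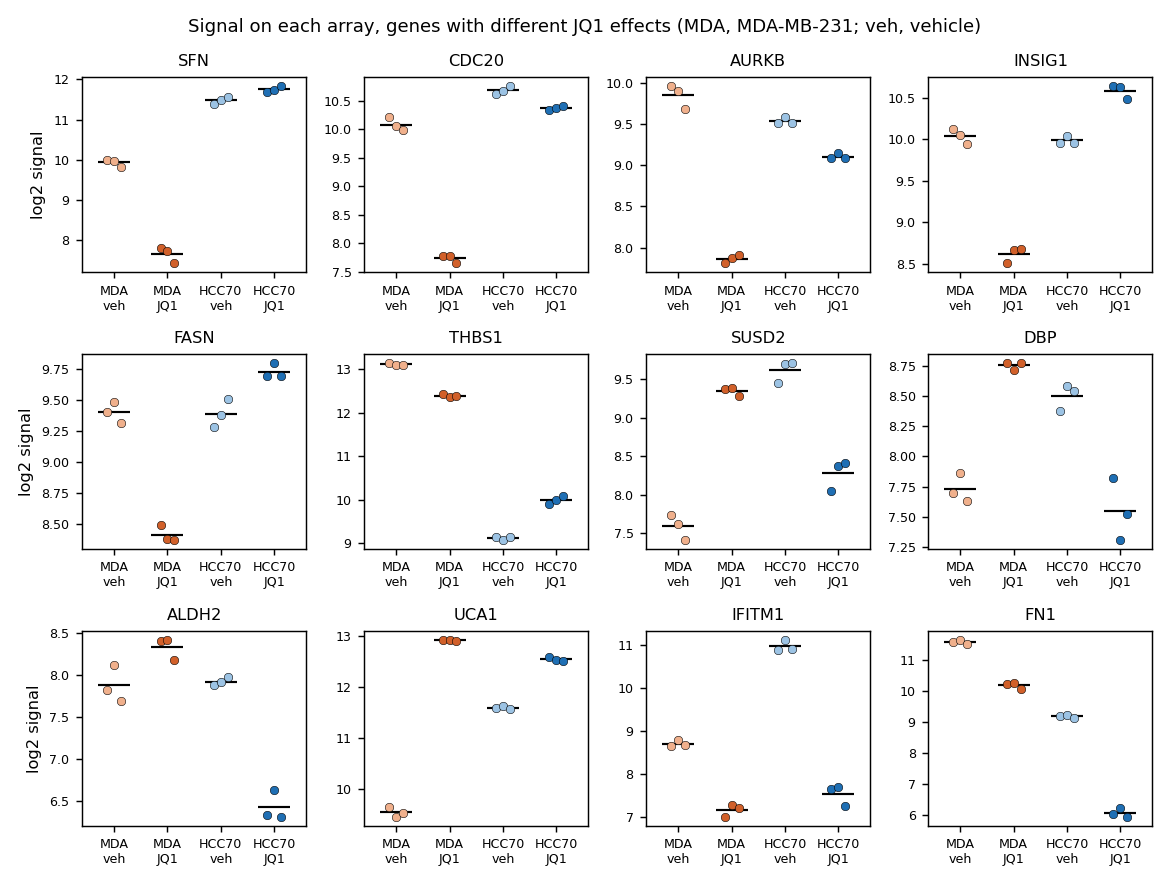
Log2 signal on each of the 12 arrays (points) and group means (lines) for 12 genes, with separate vertical scales that do not start at 0. SFN, CDC20, AURKB, INSIG1, FASN and THBS1 had positive differences and SUSD2, DBP, ALDH2, UCA1, IFITM1 and FN1 negative ones; INSIG1, FASN, THBS1, SUSD2, DBP and ALDH2 moved in opposite directions.

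Several lipid synthesis genes fell in MDA-MB-231, and some of them rose in HCC70. INSIG1, the membrane protein that restrains sterol synthesis and is itself switched on by SREBP factors, read 10.13, 10.05 and 9.95 in MDA-MB-231 vehicle and 8.51, 8.66 and 8.68 under JQ1. In HCC70 it read 9.96, 10.05 and 9.95 in vehicle and 10.64, 10.63 and 10.49 under JQ1. From equal vehicle levels it thus fell 2.68-fold in one line and rose 1.52-fold in the other, without overlap in either (difference 2.03 ± 0.12, limma adjusted p = 8e-07). FASN, the fatty acid synthase, fell from 9.41, 9.49 and 9.32 to 8.49, 8.38 and 8.37 in MDA-MB-231 and rose from 9.29, 9.38 and 9.51 to 9.70, 9.80 and 9.70 in HCC70 (difference 1.33 ± 0.12). SREBF1, which encodes a factor that drives both pathways, fell by 0.75 in MDA-MB-231 and was not called in HCC70 (effect 0.09; difference 0.84 ± 0.12).

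Of 14 sterol synthesis and uptake genes 7 were positive and 0 negative (median difference 0.42), against 18.0% and 6.85% of all genes above the level. The positive count was 4 without HCC70 JQ1 replicate 1 or 2, or without MDA-MB-231 vehicle replicate 1 or 2. It was also 4 with the replicate number as a block. Of 19 fatty acid and lipid storage genes 9 were positive and 2 negative (median 0.48). Their shares were 47.4% and 10.5%, against 18.0% and 6.85% of all genes above the level. The desaturase SCD fell in both lines, by 1.55 and 0.42 (difference 1.13 ± 0.11). The negative ones were the acyl-CoA synthetase ACSL1 (-0.65 ± 0.12), which rose in MDA-MB-231 and fell in HCC70, and the desaturase SCD5 (-0.86 ± 0.17), which fell in HCC70 alone.

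Among other genes with opposite calls, MIR3143 had the largest positive difference. The cluster annotated to this microRNA hairpin (RefSeq, GRCh38.p14, chr6:27147626-27147688, plus strand) fell from 10.23, 10.31 and 9.91 to 9.38, 9.10 and 9.13 in MDA-MB-231. In HCC70 it rose from 8.92, 8.62 and 8.74 to 10.59, 10.27 and 10.15. The difference was 2.52 ± 0.20 (limma adjusted p = 4.7e-06). The order of the lines turned, from MDA-MB-231 above by 1.39 to HCC70 above by 1.13. Whether this signal came from precursor, mature or other RNA was not tested.

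THBS1, the matrix protein thrombospondin, fell from 13.15, 13.10 and 13.11 to 12.44, 12.37 and 12.39 in MDA-MB-231 and rose from 9.14, 9.07 and 9.15 to 9.91, 9.996 and 10.09 in HCC70 (difference 1.60 ± 0.11). Its level stayed higher in MDA-MB-231 on every array. EFEMP1, another extracellular matrix glycoprotein, fell from 11.01, 11.01 and 10.95 to 9.51, 9.40 and 9.47 and rose in HCC70 from 9.85, 9.82 and 9.81 to 10.19, 10.13 and 10.11. For EFEMP1 the difference was 1.85 ± 0.10, and the line order turned.

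SUSD2 had the largest negative difference, and it too moved in opposite directions. This membrane protein gene rose from 7.74, 7.62 and 7.41 to 9.37, 9.38 and 9.28 in MDA-MB-231, 3.38-fold. In HCC70 it fell from 9.46, 9.70 and 9.71 to 8.04, 8.37 and 8.41, 2.54-fold. The difference was -3.10 ± 0.17 (limma adjusted p = 5e-07), and the line with the higher level changed from HCC70 to MDA-MB-231.

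DBP, a transcription factor with strong daily rhythm, rose from 7.70, 7.86 and 7.63 to 8.77, 8.72 and 8.77 in MDA-MB-231 and fell from 8.37, 8.59 and 8.54 to 7.82, 7.31 and 7.53 in HCC70 (difference -1.97 ± 0.17). NPAS2, a partner of the clock protein BMAL1, fell in both lines and further in HCC70 (-0.58 ± 0.12). These were the 2 called of 5 circadian genes above the level, both negative (40.0%, against 6.85% of all genes above it).

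ALDH2, the mitochondrial aldehyde dehydrogenase, started at equal levels, 7.83, 8.13 and 7.70 in MDA-MB-231 and 7.88, 7.92 and 7.98 in HCC70. Under JQ1 it read 8.41, 8.42 and 8.18 in MDA-MB-231 and 6.34, 6.63 and 6.31 in HCC70. The rise in MDA-MB-231 was small (0.45 ± 0.12, limma adjusted p = 0.015) and the fall in HCC70 2.82-fold (difference -1.95 ± 0.18). The zinc finger gene ZNF114 rose by 0.91 and fell by 0.81 (difference -1.72 ± 0.14), and SKIL, a corepressor of SMAD factors, rose by 0.43 and fell by 0.77 (-1.20 ± 0.14).

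UCA1, a long noncoding RNA, rose in both lines and far more in MDA-MB-231. Its arrays went from 9.63, 9.45 and 9.52 to 12.92, 12.91 and 12.90 there, 10.4-fold, and from 11.57, 11.61 and 11.56 to 12.58, 12.51 and 12.51 in HCC70, 1.93-fold. The difference was -2.42 ± 0.11, and on its other, dimmer cluster -2.13 ± 0.16. The lines ended within 0.38 of each other after starting 2.05 apart.

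Several genes fell in HCC70 alone. MT1X, a metal-binding metallothionein, went from 11.27, 11.32 and 11.24 to 9.62, 9.56 and 9.65 in HCC70, while in MDA-MB-231 it read 9.24, 9.03 and 8.92 in vehicle and 9.35, 9.23 and 9.35 under JQ1. Its difference was -1.91 ± 0.13, though metallothionein genes are near-identical copies whose signals the array may share. GGT3P, a pseudogene of the gamma-glutamyltransferase family, differed by -1.89 ± 0.21 with the same reservation, and by -1.42 and -0.86 on its other clusters, which passed too.

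VIM went from 7.12, 7.25 and 7.02 to 5.40, 5.66 and 5.18 in HCC70, and in MDA-MB-231 from 10.47, 10.41 and 10.38 to 10.58, 10.55 and 10.58, an effect of 0.15 that did not pass. The VIM difference was -1.87 ± 0.16, and -1.37 and -1.77 on its 2 other clusters, which read under 7 in HCC70 vehicle and were at 0.72 and 0.89 for the MDA-MB-231 effect. FN1, fibronectin, fell in both lines, from 11.57, 11.65 and 11.52 to 10.22, 10.25 and 10.07 in MDA-MB-231 and from 9.18, 9.21 and 9.14 to 6.02, 6.22 and 5.94 in HCC70. FN1 thus fell 2.64-fold and 8.66-fold (difference -1.72 ± 0.13). Of the 5 mesenchymal and matrix genes above the level 4 were negative (also SNAI2 at -0.74 and the protease MMP14 at -0.62) and THBS1 was the positive one. Among all genes above the level 6.85% were negative and 18.0% positive. The count rests on 5 genes, and VIM lay close to the level (HCC70 vehicle mean 7.13). Of the list's 12 genes tested under the level 4 were positive and 2 negative.

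MIR27B was among the 12 most negative genes. Both mature arms that RefSeq gives for its hairpin (GRCh38.p14, chr9:95085445-95085541, plus strand) are shown because the seed, bases 2 to 8 in capitals, sets which messages a microRNA pairs with; the seeds of the arms differ.
hsa-miR-27b-3p: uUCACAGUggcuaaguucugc
hsa-miR-27b-5p: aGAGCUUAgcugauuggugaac

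The cluster read 8.01, 8.06 and 7.63 in MDA-MB-231 vehicle and 9.28, 9.31 and 9.20 under JQ1, a 2.57-fold rise. In HCC70 it read 7.05, 7.02 and 6.98 and then 6.65, 6.87 and 6.41, which did not pass (effect -0.37, limma adjusted p = 0.058). The difference was -1.74 ± 0.18. Its HCC70 vehicle mean, 7.02, lay just above the level. Whether the signal came from precursor, mature or other RNA was not tested.

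Among interferon genes the share of negative calls was above that of all genes above the level, and the share of positive calls was close to it. As background, interferons switch on antiviral genes through a factor complex that includes IRF9 and binds an ISRE element. Promoters of IFITM1 and IFIT3 are shown. They had the largest called differences among interferon genes with an ISRE-like match in the 150 bases before the start. The match was GAAA, any pair of bases, GAAA, on either strand. The lines give the 150 bases before the start (RefSeq, GRCh38.p14, plus strand, chr11:313890-314039 and chr10:89327847-89327996), with the match in capitals, beginning 40 and 122 bases before the start; for IFIT3 the match is on the other strand.
IFITM1: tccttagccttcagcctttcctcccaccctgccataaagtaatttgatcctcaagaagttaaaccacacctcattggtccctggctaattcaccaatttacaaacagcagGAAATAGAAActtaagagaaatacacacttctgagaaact
IFIT3: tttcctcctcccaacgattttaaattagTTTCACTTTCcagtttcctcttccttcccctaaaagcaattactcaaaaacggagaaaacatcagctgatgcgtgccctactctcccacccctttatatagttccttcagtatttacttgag

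The ISRE-like letters stood in 10 of 17 matched interferon genes above the level (58.8%) and in 3.45% of all genes above it. IFITM1, a membrane protein that hinders viral entry, fell from 8.66, 8.78 and 8.68 to 6.999, 7.28 and 7.21 in MDA-MB-231 and from 10.89, 11.12 and 10.92 to 7.64, 7.69 and 7.26 in HCC70. The falls were 2.92-fold and 10.9-fold, a difference of -1.90 ± 0.17 (limma adjusted p = 1.3e-05), and the gap between the lines shrank from 2.27 to 0.37. IFITM genes are close copies of each other, so their signals are not fully separate.

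SAMD9L, an interferon-induced growth suppressor, moved in HCC70 alone, from 8.93, 8.73 and 8.81 to 7.31, 7.25 and 6.96. Its MDA-MB-231 arrays read 8.43, 8.36 and 8.39 in vehicle and 8.61, 8.71 and 8.52 under JQ1, an effect that missed the threshold (0.22, limma adjusted p = 0.13; difference -1.87 ± 0.14). The other negative calls were IFIT3 (-1.40), IRF9 (-0.73) and DDX60 (-0.69). The positive ones were SP100, a nuclear body protein (0.77 ± 0.12), the ubiquitin-like ISG15 (0.62 ± 0.15) and the transcription factor IRF1 (0.46).

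In all, 36 interferon response genes were tested and 18 were above the level, of which 3 were positive (16.7%, against 18.0% of all genes above the level) and 5 negative (27.8%, against 6.85%), with a median difference of -0.10, while 13 fell in MDA-MB-231 and 14 in HCC70. Under the level 2 were positive and 8 negative. Several of these genes lie close to the level, and the counts above it were 1 and 2 when arrays were centred on their medians, 1 and 3 with quantile normalization, 1 and 6 without the 3 arrays numbered 3 that stood apart (both MDA-MB-231 groups and JQ1 in HCC70), and 2 and 3 without HCC70 vehicle replicate 1. The call of ISG15 ended without those 3 arrays (adjusted p = 0.068).

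Of 16 genes of amino acid shortage and endoplasmic reticulum (ER) stress, 9 were positive (56.2%, against 18.0% of all genes above the level), 0 negative and 7 not called, with a median difference of 0.56. With quantile normalization 2 were negative. CARS1, a transfer RNA ligase for cysteine, fell from 8.69, 8.66 and 8.71 to 7.49, 7.47 and 7.45 in MDA-MB-231 and read 7.10, 7.15 and 7.23 and then 7.02, 7.15 and 6.94 in HCC70 (difference 1.10 ± 0.11). HYOU1, an ER chaperone, fell by 0.66 in MDA-MB-231 and rose by 0.38 in HCC70 (difference 1.03 ± 0.10). On its dimmer cluster the effects were 0.008 and 0.36, and the difference of 0.35 did not pass.

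Of 12 heat shock chaperones 5 were positive (41.7%, against 18.0% of all genes above the level), 0 negative and 7 not called. Quantile normalization gave 2 negative ones. HSPH1 fell by 0.81 in MDA-MB-231 alone (difference 0.92 ± 0.14), and the small chaperone HSPB1 rose in HCC70 alone, from 12.22, 12.20 and 12.26 to 12.67, 12.75 and 12.72 (0.68 ± 0.10). Of 25 ribosome biogenesis genes 8 were positive (32.0%, against 18.0% of all genes above the level) and 0 negative. The median was 0.31, and the positive ones included the helicase DDX10 (0.65 ± 0.11) and the nucleolar phosphoprotein NOLC1 (0.47 ± 0.10). Leaving out 1 array at a time gave 4 to 8 ribosome calls, the lowest without HCC70 JQ1 replicate 2, HCC70 vehicle replicate 1, MDA-MB-231 JQ1 replicate 2 or MDA-MB-231 vehicle replicate 1.

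Among 34 chromatin regulators 10 were positive and 4 negative (29.4% and 11.8%, against 18.0% and 6.85% of all genes above the level). EZH2, the methyltransferase of Polycomb, read 9.41, 9.45 and 9.38 in MDA-MB-231 vehicle and 7.89, 8.05 and 7.91 under JQ1, a 2.75-fold fall. In HCC70 its vehicle arrays at 9.85, 9.76 and 9.80 and JQ1 arrays at 9.77, 9.77 and 9.79 overlapped (effect -0.03). The EZH2 difference was 1.44 ± 0.11, and the maintenance DNA methyltransferase DNMT1 differed by 0.90 ± 0.11, also with a fall in MDA-MB-231 alone. HDAC5, a histone deacetylase, rose in MDA-MB-231 and fell in HCC70 (-0.72 ± 0.15). EZH1, the other Polycomb methyltransferase, rose in MDA-MB-231 alone (difference -0.41 ± 0.12, limma adjusted p = 0.033), a call that was lost with the replicate block (0.07), without the 3 arrays numbered 3 (0.12) and without HCC70 JQ1 or vehicle replicate 2 or 3, MDA-MB-231 JQ1 replicate 2 or 3 or MDA-MB-231 vehicle replicate 3 (0.056 to 0.081). The 4 negative calls were 1 to 3 when 1 array was left out, and 1 with the block.

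Of 14 core transcription genes 5 were positive (35.7%, against 18.0% of all genes above the level) and 0 negative. The positive count was 1 to 4 when 1 array was left out and 3 with the block. GTF2B, which positions RNA polymerase, rose in HCC70 alone (difference 0.57 ± 0.11). U2AF1, a splicing factor, fell in MDA-MB-231 alone (0.51 ± 0.14, limma adjusted p = 0.024), but it was not called without HCC70 JQ1 replicate 1 or 2, HCC70 vehicle replicate 2 or 3, MDA-MB-231 JQ1 replicate 3 or MDA-MB-231 vehicle replicate 1 or 2 (adjusted p = 0.051 to 0.064).

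Of 11 growth factor receptor and signalling genes above the level 2 were positive (18.2%, against 18.0% of all genes above it), 1 was negative and 8 were not called. All 4 genes of the ERK feedback list above the level were positive, against 18.0% of all genes above it. Under the level 7 genes of this list were positive, 1 was negative and 5 were not called. The largest difference of the 4 was that of ERRFI1, a brake on the EGF receptor (0.998 ± 0.12). ERRFI1 fell from 11.72, 11.78 and 11.82 to 11.07, 11.14 and 11.17 in MDA-MB-231. In HCC70 it rose from 9.72, 9.92 and 9.75 to 10.19, 10.20 and 10.07. The receptor tyrosine kinase MET fell slightly in MDA-MB-231 (-0.24, limma adjusted p = 0.045) and rose in HCC70 from 10.68, 10.60 and 10.67 to 11.52, 11.35 and 11.31 (difference 0.98 ± 0.12). IER3, another of the 4 ERK feedback genes, differed by 0.95 ± 0.12. The array holds 11 clusters for IER3, some dimmer and at -0.43, and their mean did not pass (0.33, adjusted p = 0.096). The count of 4 thus rests on its brightest cluster. The kinase MAP2K1 differed by 0.49 ± 0.10 and the receptor EPHB4, negative, by -0.56 ± 0.15, a call that was lost without HCC70 JQ1 replicate 2, HCC70 vehicle replicate 3 or MDA-MB-231 JQ1 replicate 1 (adjusted p = 0.052 to 0.06).

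In the immediate early and AP-1 list, 4 of 9 genes were positive and 1 negative, and 2 were positive with the mean of each gene's clusters. The shares of 4 and 1 were 44.4% and 11.1%, against 18.0% and 6.85% of all genes above the level. JUN, the AP-1 subunit, read 8.68, 8.77 and 8.80 and then 8.75, 8.71 and 8.66 in MDA-MB-231 and rose from 8.40, 8.52 and 8.49 to 9.22, 9.27 and 9.05 in HCC70 (difference 0.76 ± 0.12). IER5 was the negative one (-0.74 ± 0.13). FOSL1, whose HCC70 vehicle mean of 5.77 put it under the level, fell by 1.47 in MDA-MB-231, with a difference of 1.60 ± 0.21.

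Of 11 targets of YAP and TEAD, the factors of the Hippo pathway, 6 were positive and 1 negative. Their shares were 54.5% and 9.09%, against 18.0% and 6.85% of all genes above the level. CRIM1 rose in both lines, from 11.22, 11.15 and 11.18 to 11.41, 11.36 and 11.47 in MDA-MB-231 and from 9.49, 9.29 and 9.38 to 10.48, 10.54 and 10.46 in HCC70 (difference 0.87 ± 0.11). AMOTL1 rose in HCC70 alone (0.82 ± 0.11), and on its dimmer cluster the difference of 0.44 did not pass. ARHGEF17 was negative (-0.55 ± 0.13). VCL, the adhesion protein vinculin, was the 1 called of 5 integrin and laminin list genes (0.43 ± 0.10). That share was close to the 18.0% of all genes above the level called positive.

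A pair of keratins moved apart, each in 1 line. KRT7 rose from 7.51, 7.66 and 7.39 to 9.01, 8.91 and 8.75 in MDA-MB-231 (difference -1.18 ± 0.13). KRT80 rose from 7.99, 8.19 and 8.17 to 8.96, 9.02 and 8.98 in HCC70 (0.77 ± 0.12). The other 3 keratins above the level were not called. With 1 call each way among 5 keratins, the positive share was close to the 18.0% of all genes above the level. The negative share was above their 6.85%, but rests on 1 gene.

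VEGFA, the vascular growth factor, fell from 8.74, 8.82 and 8.93 to 6.58, 6.66 and 6.92 in MDA-MB-231 and from 7.92, 7.99 and 7.86 to 7.25, 7.19 and 7.23 in HCC70. Its falls were 4.32-fold and 1.62-fold (difference 1.41 ± 0.14), and it was the 1 called of 12 hypoxia and glycolysis genes (8.33%). OGDH, a subunit of a citric acid cycle enzyme, rose in both lines and further in HCC70 (0.64 ± 0.12). It was the 1 called of 8 genes of oxidative phosphorylation and the cycle (12.5%). Both shares were under the 18.0% of all genes above the level called positive. In signalling by TGF-beta, WNT and NOTCH, 2 of 11 were positive and 2 negative. Each share was 18.2%, against 18.0% positive and 6.85% negative among all genes above the level. The positive ones were the receptor FZD6 (0.61 ± 0.12) and the ligand JAG1 (0.53 ± 0.14). SKIL and the ligand BMP4 (-0.56 ± 0.14) were negative. JAG1 lost its call without HCC70 JQ1 or vehicle replicate 1 or 2, MDA-MB-231 JQ1 replicate 3 or MDA-MB-231 vehicle replicate 1 or 2 (limma adjusted p = 0.052 to 0.065), and BMP4 without the 3 arrays numbered 3 (0.076).

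Some lists held few or no calls. None of the 17 genes of the BET and P-TEFb control list above the level was called for the difference. The share called among all genes above the level was 24.9%. The differences of the 17 ranged from -0.05 to 0.38. BRD2 rose in both lines, from 8.66, 8.89 and 8.91 to 9.67, 9.61 and 9.78 in MDA-MB-231 and from 8.46, 8.53 and 8.43 to 9.67, 9.75 and 9.65 in HCC70. Its difference of 0.35 ± 0.13 did not pass (95% interval 0.08 to 0.63, limma adjusted p = 0.084), but passed with array weights (0.023), with a variance trend (0.017) and without MDA-MB-231 vehicle replicate 1 (0.036). BRD3 differed by 0.22 (95% interval -0.02 to 0.46, limma adjusted p = 0.23). HEXIM1, which restrains P-TEFb and whose HCC70 vehicle mean of 6.87 put it just under the level, differed by 0.52 ± 0.18 (limma adjusted p = 0.078). On its dimmer cluster the difference had the other sign and did not pass either (-1.06 ± 0.42, limma adjusted p = 0.13).

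MYC fell in both lines and more in HCC70. It went from 8.72, 8.75 and 8.75 to 8.42, 8.30 and 8.28 in MDA-MB-231 and from 7.32, 7.50 and 7.63 to 6.65, 6.65 and 6.41 in HCC70, with no overlap in either. The difference of -0.51 ± 0.14 passed narrowly (limma adjusted p = 0.03) and did not pass with the replicate block (0.073), without HCC70 JQ1 replicate 3, HCC70 vehicle replicate 2 or 3, MDA-MB-231 JQ1 replicate 1 or MDA-MB-231 vehicle replicate 1 or 2 (0.058 to 0.079), or without the 3 arrays numbered 3 (0.078). MLX, a partner factor of the same network, was positive (0.68 ± 0.14), and the other 4 network genes were not called. The 1 call each way was 16.7%, against 18.0% positive and 6.85% negative among all genes above the level.

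Of 23 lysosome and autophagy genes 0 were positive and 1 negative (4.35%), against 18.0% and 6.85% of all genes above the level. ASAH1, the acid ceramidase, was that one; it rose in both lines and its call (-0.38 ± 0.11, limma adjusted p = 0.039) ended with the block (0.072) and without any array but HCC70 JQ1 replicate 2 or MDA-MB-231 vehicle replicate 2 (0.055 to 0.089). None of 8 BCL2 family and 5 antigen presentation genes was called (ranges -0.30 to 0.41 and -0.10 to 0.35), which does not show that the lines act alike on them. The 1 call among 6 p53 targets, PLK2 (0.46 ± 0.14, limma adjusted p = 0.042), ended with the block (0.055) and without any array but HCC70 vehicle replicate 2, MDA-MB-231 JQ1 replicate 3 or MDA-MB-231 vehicle replicate 1 (0.053 to 0.10). The 1 among 4 NF-kB genes, NFKB1 (0.52 ± 0.14, limma adjusted p = 0.023), ended without HCC70 JQ1 replicate 1 or 2, HCC70 vehicle replicate 1 or 3, MDA-MB-231 JQ1 replicate 3 or MDA-MB-231 vehicle replicate 1 or 2 (0.052 to 0.062).

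**Figure D4:**
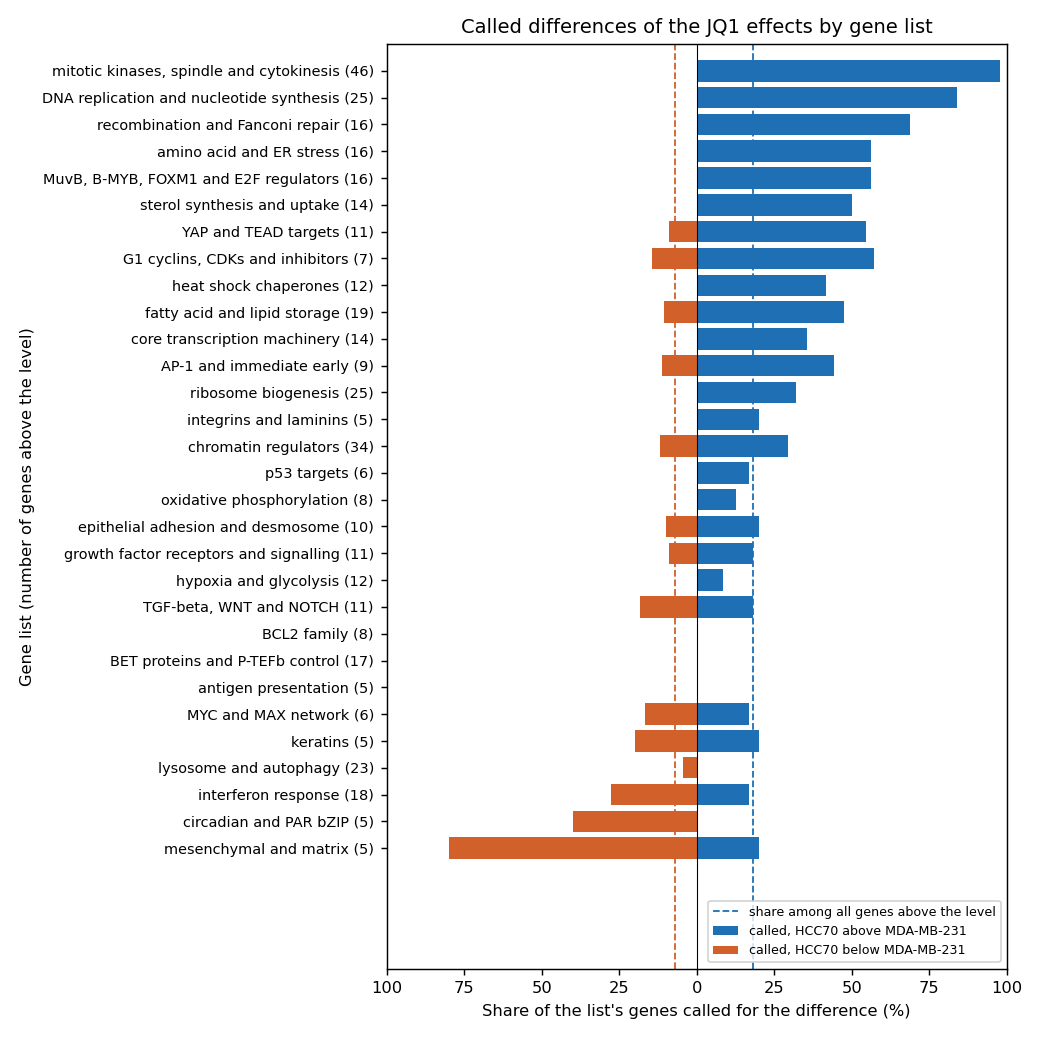
Share of each list's genes above the level that were called for the difference, positive to the right and negative to the left, for lists with at least 5 such genes (number in brackets). Dashed lines mark the shares among all 4585 genes, 18.0% and 6.85%; mitotic genes reach 97.8% on the right and mesenchymal genes 80.0% on the left, the latter over 5 genes.

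The gap between the lines under JQ1 followed from these differences. The size of the gap in mean level was smaller under JQ1 in 378 of the 1141 called genes (33.1%), whose median gap went from 0.51 in vehicle to 0.80 under JQ1, and in 1958 of all 4585 (42.7%), whose median went from 0.43 to 0.49. The order of the lines turned in 375 called genes. The gaps and the effects share the vehicle arrays, so these are descriptions without a test.

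The share of positive calls was higher among brighter genes. Among genes whose lower vehicle mean was 7 to 8 it was 14.2% of 2197, then 19.9% of 1422 at 8 to 9, 24.2% of 682 at 9 to 10 and 23.2% of 284 from 10 up. Negative calls went from 8.01% to 6.61%, 4.69% and 4.23%. Both JQ1 means were also at least 7 in 894 of the 1141 called genes.

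Under the level, where 1 or both lines have little signal to lose, the largest differences were LAPTM5 (3.73) and CLIC6 (2.94), bright in MDA-MB-231 vehicle alone, and CP (-4.94) and IFI44L (-3.93), bright in HCC70 vehicle alone. Their dim line lay at 5.19, 3.94, 4.16 and 3.61 in vehicle.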

How the data were processed

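The authors deposited log2 signals of 53617 transcript clusters, made, per the submitters' processing notes, with tools that include RMA, oligo and limma (versions not stated there). Their genome build is not given in sources at hand. Of the clusters 16098 had 1 gene symbol in the platform annotation, 0 several and 37519 none. For the 779 genes with several clusters the brightest was kept, which left 14884 genes. RMA adjusts arrays to a common scale, which can hide a shift shared by most genes.

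In R 4.3.3, limma 3.58.1 (with statmod 1.5.0) fitted the 4 group means over the 12 arrays with lmFit and eBayes, without a trend, and the difference of the JQ1 effects was tested two-sided, with Benjamini-Hochberg adjustment over all genes and a call at an adjusted p under 0.05. SEs use the moderated variance. No test was made of a list as a whole. The procedure was tested on simulated data.

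Named genes were the 12 most positive and 12 most negative called genes above the level, the 6 largest with opposite calls, up to 2 genes per direction of each of 35 lists, fixed BET and cell cycle readouts, the 2 largest each way outside the level and those beside it; others are named only within a list's calls or count. The genes and lists were chosen with earlier results of these data known. A fixed readout is not reported here.

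The labels number the arrays of each group. Deviations of vehicle and JQ1 arrays with the same number correlated across genes at 0.155, 0.121 and 0.362 in MDA-MB-231 and at -0.059, 0.015 and 0.07 in HCC70. The 0.362 joins the arrays numbered 3, which stood apart, and MDA-MB-231 vehicle 2 correlated with JQ1 1 at 0.121 too. In HCC70 the highest value, 0.135, was between vehicle 2 and JQ1 1. The numbers thus pair arrays in MDA-MB-231 at most. Alternatives were the replicate block, other scales, variance models, clusters and levels, and leaving out arrays; 0 columns belonged to other samples.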

Additional observations from a re-analysis of the deposited data

Results flagged for a closer look

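Named genes called in both lines with opposite signs are listed here, with the tested difference of the JQ1 effects (HCC70 minus MDA-MB-231, limma). INSIG1 (2.03), MIR3143 (2.52), EFEMP1 (1.85), THBS1 (1.60), FASN (1.33), HYOU1 (1.03), ERRFI1 (1.0) and MET (0.98) rose in HCC70 and fell in MDA-MB-231. SUSD2 (-3.10), DBP (-1.97), ALDH2 (-1.95), ZNF114 (-1.72), SKIL (-1.20), HDAC5 (-0.72) and ACSL1 (-0.65) did the reverse. The difference was not called for HDAC5 without the 3 arrays numbered 3 (-0.57, adjusted p = 0.053), and the other 14 kept the call of the difference in all 20 settings tried; the calls within each line were not followed. On the dimmer cluster of HYOU1 the difference of 0.35 did not pass. Groups of 3 arrays are too small for a test of single outlying arrays.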

How the results depend on the processing

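In 20 other settings 78 of the 92 called named genes kept their call, 14 lost it in some, and 0 changed sign. Genes above the level called with opposite signs numbered 102, and 179 with array weights, 177 with a variance trend, 47 at a vehicle level of 8 and 47 at a size of at least 1; without 1 array they ranged from 65 to 112, the lowest without HCC70 vehicle replicate 2. Negative calls were 519 with quantile normalization, 495 at a level of 6, 138 at 8 and 51 at a size of 1. At a level of 8 there were 652 calls (514 positive) and at a size of 1 there were 241 (190 positive), with 607 of all genes. Leaving out 1 array gave 862 to 1211 calls above the level (615 to 949 positive, 233 to 297 negative) and 1748 to 2376 over all genes.

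With the replicate number as a block 1029 genes above the level were called (744 positive, 285 negative; 2171 of all genes; 89 with opposite signs), and 977 of them were among the 1141. MYC, ASAH1, PLK2 and EZH1 lost their calls; the block changed no other call of a named gene above the level. Without the 3 arrays numbered 3 there were 1131 calls (879 positive, 252 negative). Of 1680 list counts compared, 224 moved by over 1.5 times. The causes were not tested. The 3 arrays of a group limit which differences could be called.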
